A study of Mus musculus with 15 samples.

Results

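The comparison described here sets mouse embryonic stem (ES) cells kept for 24 h in CHIR99021 alone against cells of the same line from which every factor had been withdrawn for 24 h. The members were chosen by the array titles, CHIR against DMSO, with 3 arrays in each group, so that 6 of the 15 arrays of the series and all 19937 genes with an unambiguous name entered it. All groups share 1 cell line, a 2i-adapted ES line with a biotin and 3xFLAG knock-in at the beta-catenin gene Ctnnb1 and the biotin ligase BirA, so no untagged cells stand beside them. The CHIR group held CHIR99021 at 3 µM without PD0325901 and LIF, and the DMSO group held none of these factors. The other groups were 2iLIF (long-term culture in CHIR99021 at 3 µM, PD0325901 at 1 µM and LIF), 2i (both inhibitors, LIF withdrawn for 24 h) and PD03 (PD0325901 alone for 24 h), with 3 arrays each. Whether the replicates were separate cultures is not stated in the labels, and the p-values therefore reflect the spread among these arrays alone, which may be technical.

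GSK3 is a kinase that phosphorylates beta-catenin and so marks it for destruction. It also phosphorylates many other proteins, among them glycogen synthase, MYC and regulators of metabolism. CHIR99021 inhibits GSK3, and stabilised beta-catenin then binds TCF and LEF factors, of which TCF7L1 acts mainly as a repressor in ES cells. PD0325901 inhibits MEK, the kinase upstream of ERK, and LIF acts through STAT3.

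Values are log2 RMA signals of total RNA on whole-transcript arrays. A difference of 1 on this scale is 2-fold, and differences are given with their standard error (SE) from a limma model of all 15 arrays. A gene was called at an adjusted p under 0.05, by the Benjamini-Hochberg method over the 19937 genes. In CHIR minus DMSO 4144 genes (20.8%) were called, 1998 higher with CHIR99021 (10.0%) and 2146 lower (10.8%). When each array was centred on its median, which moved the median difference of all genes from -0.01 to 0.03, the split was 2623 higher and 1548 lower. The split of small differences therefore depends on the scaling. In all, 92 genes (0.461%) differed at least 2-fold, 68 higher (0.341%) and 24 lower (0.120%), and all 68 and 20 of the 24 did so after centring. Only 11 genes were at least 4-fold higher and 1 at least 4-fold lower. Arrays of the groups did not overlap for 6354 genes (31.9%). Within each of the 5 groups the arrays correlated at 0.9983 or more over all genes.

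The kinase genes showed no called difference in mRNA. Gsk3a was 11.04, 10.98 and 10.97 on the CHIR arrays and 11.02, 11.05 and 11.03 on the DMSO arrays. Gsk3b was at 10.05, 10.07 and 10.01 against 10.04, 10.01 and 10.04. The values of both genes overlap between the groups, with differences of -0.04 ± 0.04 and 0.01 ± 0.04 (limma adjusted p = 0.623 and 0.857), and that of Gsk3a was 0.00 after centring. Ctnnb1 read 11.90 to 11.93 in CHIR and 11.99 to 12.01 in DMSO, without overlap, and was not called (-0.09 ± 0.03, limma adjusted p = 0.0683). It was called with the filter on low values (adjusted p = 0.049) and with limma's trend and robust settings (0.0111). Of 20 genes of the beta-catenin destruction complex and its regulators, 1 was higher and 2 were lower, with all differences between -0.21 and 0.15, and 17 were not called. Without CHIR replicate 3 or without DMSO replicate 1, 0 of the 20 were called. The core pluripotency factors Pou5f1 and Sox2, which mark ES cells, had high signal in both groups, at 12.45 to 12.56 and 11.35 to 11.57, and were not called (-0.05 ± 0.03 and 0.09 ± 0.04, limma adjusted p = 0.386 and 0.17). Other pluripotency genes did differ. Of 18 naive pluripotency genes 15 were higher and 3 lower (100% called, against 20.8% of all genes), with a median of 0.78. Of 20 formative epiblast genes 3 were higher and 14 lower (85.0% called), with a median of -0.57.

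Most measured noncoding genes of the Dlk1 to Dio3 region of chromosome 12 were lower with CHIR99021. This imprinted region carries the protein-coding genes Dlk1, Rtl1 and Dio3, read from the paternal chromosome, and the long noncoding RNAs Meg3 and Rian with a large group of microRNA and small nucleolar RNA genes, read from the maternal one. Meg3 read 10.60, 10.37 and 10.49 on the CHIR arrays and 11.18, 11.17 and 11.14 on the DMSO arrays. Rian read 8.56, 8.43 and 8.47 against 9.28, 9.39 and 9.23. All CHIR arrays lay below all DMSO arrays for both RNAs, with differences of -0.67 ± 0.05 for Meg3 and -0.82 ± 0.07 for Rian (limma adjusted p = 1.13e-07 and 5.68e-07).

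Of 40 microRNA genes measured in the region, 31 were lower and 0 higher, with a median difference of -0.44, against a median of -0.01 and 10.8% lower among all genes. Those not called included Mir431 (0.01 ± 0.08), Mir337 (-0.09 ± 0.06), Mir540 (-0.17 ± 0.11) and Mir666 (-0.16 ± 0.06), which read above 6 in both groups. Some of the called genes read under 6, near background, in both groups. Among them were Mir379 (means of 4.86 in CHIR and 5.36 in DMSO), Mir299a (4.77 and 5.25) and Mir376a (4.53 and 4.81). Mir539, at -0.95 ± 0.07, and Mir377, at -0.94 ± 0.07, were the lowest, followed by Mir679 and Mir382, both at -0.87. Mir377 read 8.53, 8.45 and 8.61 in CHIR and 9.28, 9.48 and 9.64 in DMSO, so its groups did not overlap (limma adjusted p = 9.96e-08). Mir134 read 9.39, 9.24 and 9.28 against 9.97, 10.04 and 10.08, likewise without overlap (-0.73 ± 0.06, limma adjusted p = 1.92e-07). Rtl1, a retrotransposon-derived gene on the opposite strand from several of these microRNAs, was lower by a smaller amount (-0.32 ± 0.05, limma adjusted p = 3.19e-04). Dlk1, a Notch-related ligand gene, and Dio3, a thyroid hormone deiodinase gene, stand at the ends of the region and were not called, at -0.15 ± 0.07 and -0.13 ± 0.07 (limma adjusted p = 0.195 and 0.234). These microRNA genes were singled out after their values were seen. They lie on shared transcripts and are not independent of each other. The RNA was purified on columns that retain long RNA, and how far a hairpin probe set reads the mature microRNA rather than its host transcript was not tested.

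Median microRNA gene signal in the region was lower in the 3 groups with CHIR99021 than in PD03 and DMSO. The median of the group means of its 40 microRNA genes was 6.14 in 2iLIF, 6.11 in 2i and 6.24 in CHIR, against 6.62 in PD03 and 6.78 in DMSO. Meg3 had means of 10.38, 10.38 and 10.49 in the groups with CHIR99021 and of 11.04 and 11.16 in PD03 and DMSO. With PD0325901 alone the region was also lower than in DMSO in part: 14 of the 40 microRNA genes were lower in PD03 minus DMSO and 0 higher (8.15% of all genes lower), with a median of -0.15, and Rian was at -0.28 ± 0.07 (limma adjusted p = 0.0117). The comparison 2i minus PD03 shares no array with CHIR minus DMSO, but both take each gene's spread from the same fit of all arrays. In 2i minus PD03 28 of the 40 were lower and 0 higher (9.44% of all genes lower), and 27 were lower in both. The test of the difference between the comparisons called 0 of the 40 (406 of all genes, 2.04%). The count of 31 was 29 to 31 when any 1 of the 6 CHIR and DMSO arrays was left out, and 30 after centring.

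Imprinted genes outside the region moved in both directions. Of 20 measured, 4 were higher and 5 lower, against 10.0% higher and 10.8% lower among all genes. Of the 20, 2 were higher without CHIR replicate 1 or DMSO replicate 2, and 3 were lower without CHIR replicate 2 or DMSO replicate 3. Peg3, a zinc finger gene, read 11.32, 11.32 and 11.28 with CHIR99021 and 12.08, 11.97 and 12.05 without, with no overlap (-0.72 ± 0.03, limma adjusted p = 6.22e-10). Nnat, which encodes neuronatin, was at -0.50 ± 0.08 (limma adjusted p = 3.19e-04). Grb10, an adaptor of the insulin receptor, was at 0.31, and Plagl1, a zinc finger gene, was by far the highest of the list, at 2.71 ± 0.10.

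Outside the region, 2 microRNA clusters that are abundant in pluripotent cells were higher. The miR-302 cluster, on chromosome 3, had 4 of 5 genes higher, against 10.0% of all genes. Mir302c read 6.13, 6.32 and 6.51 in CHIR and 5.19, 5.52 and 5.89 in DMSO, a difference of 0.79 ± 0.14 without overlap (limma adjusted p = 6.96e-04). Mir302b was not called (0.55 ± 0.19, limma adjusted p = 0.0503), and its arrays overlapped. The arrays of Mir302a, which was called, overlapped too (5.87 on CHIR replicate 1 and 6.03 on DMSO replicate 3). Mir367, also called, had means of 4.75 in CHIR and 4.42 in DMSO. The number of miR-302 genes called higher was 2 of 5 without CHIR replicate 3, DMSO replicate 1 or DMSO replicate 2. The miR-17/92 cluster, on chromosome 14, had 3 of 5 genes higher, led by Mir20a at 0.38 ± 0.10, and all 5 after centring, but 1 without CHIR replicate 3 or DMSO replicate 2, when Mir20a was not called (limma adjusted p = 0.0538 and 0.0882). The miR-302 medians of 5.10 in 2iLIF, 5.71 in 2i, 6.29 in CHIR, 5.11 in PD03 and 5.67 in DMSO show the highest signal with CHIR99021 alone. Values near or below 6 on this scale can be background. Mir200b and Mir200a, of the epithelial miR-200 family, were lower, at -0.43 ± 0.06 and -0.19 ± 0.04. Of the 244 other microRNA genes measured, 2 were higher and 6 lower, against 10.0% and 10.8% of all genes.

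The mature sequences of microRNAs from these clusters are given from RefSeq (GRCm38.p6), 5′ to 3′, with the seed (bases 2 to 8) in capitals, because the seed largely sets which messages a microRNA pairs with. The first 4 belong to lowered genes of the Dlk1 to Dio3 region. The next pair are microRNAs of that region that share 1 seed. The last 4 come from the raised clusters, where miR-302c-5p and miR-302d-5p share a seed, as do miR-17-5p and miR-20a-5p. The other arms, miR-302c-3p and miR-302d-3p, have the seeds AGUGCUU and AAGUGCU, and which arm the cells use was not tested. All 40 called genes of the clusters had a mature sequence in the table.
miR-539-5p: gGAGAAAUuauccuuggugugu
miR-377-3p: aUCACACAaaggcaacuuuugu
miR-382-5p: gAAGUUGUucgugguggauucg
miR-134-5p: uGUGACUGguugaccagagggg
miR-379-3p: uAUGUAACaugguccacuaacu
miR-411-3p: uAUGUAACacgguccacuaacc
miR-302c-5p: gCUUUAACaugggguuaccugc
miR-302d-5p: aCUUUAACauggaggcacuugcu
miR-17-5p: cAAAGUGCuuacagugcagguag
miR-20a-5p: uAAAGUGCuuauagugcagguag
In that build miR-134-5p lies at chr12:109734145-109734166 and miR-302c-5p at chr3:127545368-127545389, both on the plus strand. The seeds of the lowered group differ from each other apart from the pair miR-379-3p and miR-411-3p and the pair miR-376b-5p and miR-376c-5p.

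**Figure D1:**
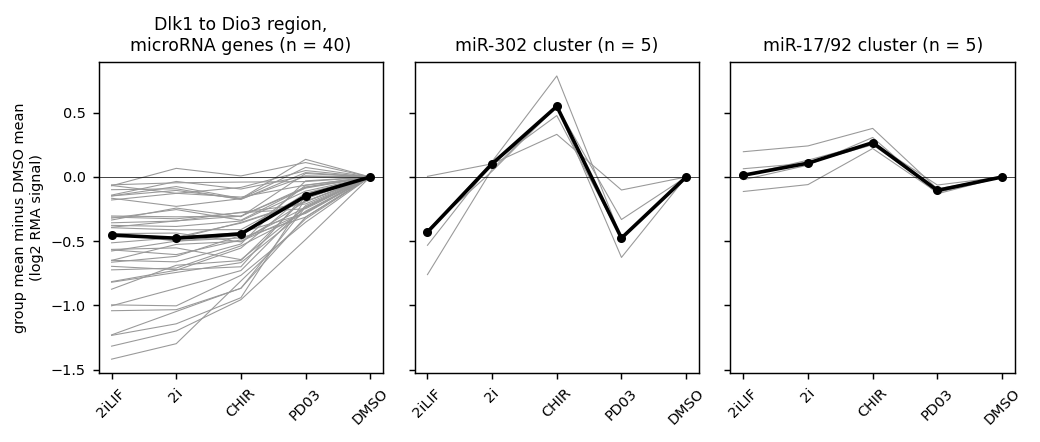
Group means of microRNA genes minus their DMSO mean (log2 RMA signal) in the 5 groups, for 40 genes of the Dlk1 to Dio3 region, 5 of the miR-302 cluster and 5 of the miR-17/92 cluster. Grey lines are genes and the black line is their median. The Dlk1 to Dio3 medians lie below 0 in 2iLIF, 2i and CHIR and, by less, in PD03, and the miR-302 median is highest in CHIR.

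Genes of Wnt secretion and reception changed in both directions. Of 44 measured Wnt ligands, receptors and secreted inhibitors, 8 were higher and 6 lower, with a median of 0.00 and 31.8% called against 20.8% of all genes. On the ligand side, Porcn, the acyltransferase that lipid-modifies Wnt proteins so that they can be secreted, read 10.42, 10.39 and 10.37 in CHIR and 8.70, 8.77 and 8.59 in DMSO. The groups were far apart, 3.26-fold (1.70 ± 0.04, limma adjusted p = 6.7e-13). Wnt8a was at 7.50, 7.52 and 7.63 against 6.88, 6.73 and 6.71 (0.78 ± 0.05), and Wnt5b was higher by 0.44 ± 0.08. Among the receptors, Fzd10 (1.04 ± 0.09) and the co-receptor Ror2 (0.74 ± 0.08) were higher. The receptors Fzd2 (-0.72 ± 0.06) and Fzd7 (-0.63 ± 0.06) were lower, and so were Fzd1 (-0.23) and the co-receptor Lrp5 (-0.19). Sfrp1, a secreted Wnt antagonist, was higher by 0.82 ± 0.05 (10.87, 10.97 and 10.82 against 10.21, 9.99 and 9.99). Of 17 TCF and LEF factors, which bind DNA with beta-catenin, and their cofactors 8 were lower, among them Lef1 at -0.50 ± 0.05 and Tcf7l1 at -0.30 ± 0.04, and 1 was higher. In all 52.9% of them were called. The lower count was 5 after centring, and also without CHIR replicate 3 or DMSO replicate 2.

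Promoters were searched for letters bound by TCF and LEF factors, to see whether they mark the raised genes. Windows from 250 bases before to 50 bases after the start site were taken from RefSeq (GRCm38.p6) for 15562 of the 19937 genes, and ATCAAAG was searched on both strands. Among genes with a window, 3.67% of the higher, 3.46% of the lower and 3.73% of all held ATCAAAG in at least 1 window. These shares hardly differed. Of the 46 genes with a window that were at least 2-fold higher, 2 held it: Gmnc and Tnfrsf19, the latter a TNF receptor family member and Wnt target. Sp5, a Wnt target that encodes a zinc finger repressor (7.48, 7.59 and 7.63 against 7.03, 7.15 and 6.89, a difference of 0.54 ± 0.07), also held it, on the opposite strand, and Axin2 (1.45 ± 0.08) did not hold it. The 250 bases before each start site of these 3 genes are printed on the gene's strand with the matches in capitals, at chr16:26991653-26991902, minus strand, chr14:61037988-61038237, minus strand, and chr2:70474673-70474922, plus strand.
Gmnc: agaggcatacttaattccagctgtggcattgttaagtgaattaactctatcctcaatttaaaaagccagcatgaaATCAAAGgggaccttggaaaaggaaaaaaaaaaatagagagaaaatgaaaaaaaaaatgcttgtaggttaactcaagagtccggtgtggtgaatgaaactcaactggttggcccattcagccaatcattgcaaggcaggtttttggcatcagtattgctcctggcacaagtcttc
Tnfrsf19: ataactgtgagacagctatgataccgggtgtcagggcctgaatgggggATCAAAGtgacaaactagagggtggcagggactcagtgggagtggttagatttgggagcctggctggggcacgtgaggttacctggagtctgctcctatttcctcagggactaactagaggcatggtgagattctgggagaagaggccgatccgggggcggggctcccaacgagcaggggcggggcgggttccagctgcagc
Sp5: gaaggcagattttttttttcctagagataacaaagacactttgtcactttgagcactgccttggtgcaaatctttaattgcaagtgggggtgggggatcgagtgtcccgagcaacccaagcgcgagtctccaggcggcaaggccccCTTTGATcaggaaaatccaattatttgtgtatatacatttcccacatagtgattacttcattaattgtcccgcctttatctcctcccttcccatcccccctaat
A match is a description of the letters alone. Other motifs separated the called groups more, under the uncentred calls alone. The split of those calls depends on the scaling, and 800 of the 1998 higher genes differed by at least 0.25. Shares after centring, or among genes of like signal, were not computed. The ETS letters CCGGAAG stood in at least 1 window of 21.3% of higher genes, 11.2% of lower and 13.6% of all, but of 6.52% of those at least 2-fold higher. The E-box CACGTG stood in 14.8%, 10.5% and 9.52%, the octamer ATGCAAAT in 1.28%, 2.8% and 1.9%, and the AP-1 letters TGANTCA in 5.08%, 7.45% and 8.06%. TCAAGGTCA, letters bound by orphan nuclear receptors, stood in 0.245%, 0.298% and 0.347%.

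Genes of neurons and axon guidance were among the highest. Nefl and Nefm encode the light and medium neurofilament proteins of axons. Nefl read 11.29, 11.28 and 11.29 with CHIR99021 and 9.01, 8.83 and 9.09 without, 4.96-fold (2.31 ± 0.06, limma adjusted p = 6.7e-13). Nefm read 7.99, 7.94 and 7.87 against 5.97, 5.81 and 5.95 (2.02 ± 0.07, limma adjusted p = 1.54e-11). Both were far apart between the groups, and the Nefm signal without CHIR99021 was near background, so no fold is given. Ntn1, the guidance cue netrin-1, read 9.50, 9.51 and 9.45 against 7.35, 7.45 and 7.23, 4.41-fold (limma adjusted p = 6.01e-13). General neural markers did not follow: of 16 neural progenitor genes 3 were higher and 4 lower (43.8% called, against 20.8% of all genes). The lower ones included the transcription factors Pax6 (-0.72 ± 0.05), Neurod1 (-0.93 ± 0.15, from a DMSO mean near background) and Sox1 (-0.31 ± 0.07).

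Receptors and ligands of the guidance families were also mixed. In the Eph and ephrin list 5 of 19 were higher and 2 lower (36.8% called, against 20.8% of all genes). The receptor Epha1 read 8.78, 8.69 and 8.81 in CHIR and 7.74, 7.60 and 7.78 in DMSO (1.05 ± 0.08), Epha4 was at 0.71 ± 0.04 and Epha7 at 0.54 ± 0.07. Against this, the ligand Efnb2 was 8.31, 8.11 and 8.20 with and 9.62, 9.98 and 10.05 without CHIR99021. In the semaphorin list 3 of 30 were higher, like the 10.0% of all genes, and 7 lower, against 10.8%. The co-receptor Nrp2 was higher by 0.77 ± 0.04, while Sema4c (-0.93 ± 0.05) and the receptor Plxna4 (-0.59 ± 0.08) were lower.

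**Figure D2:**
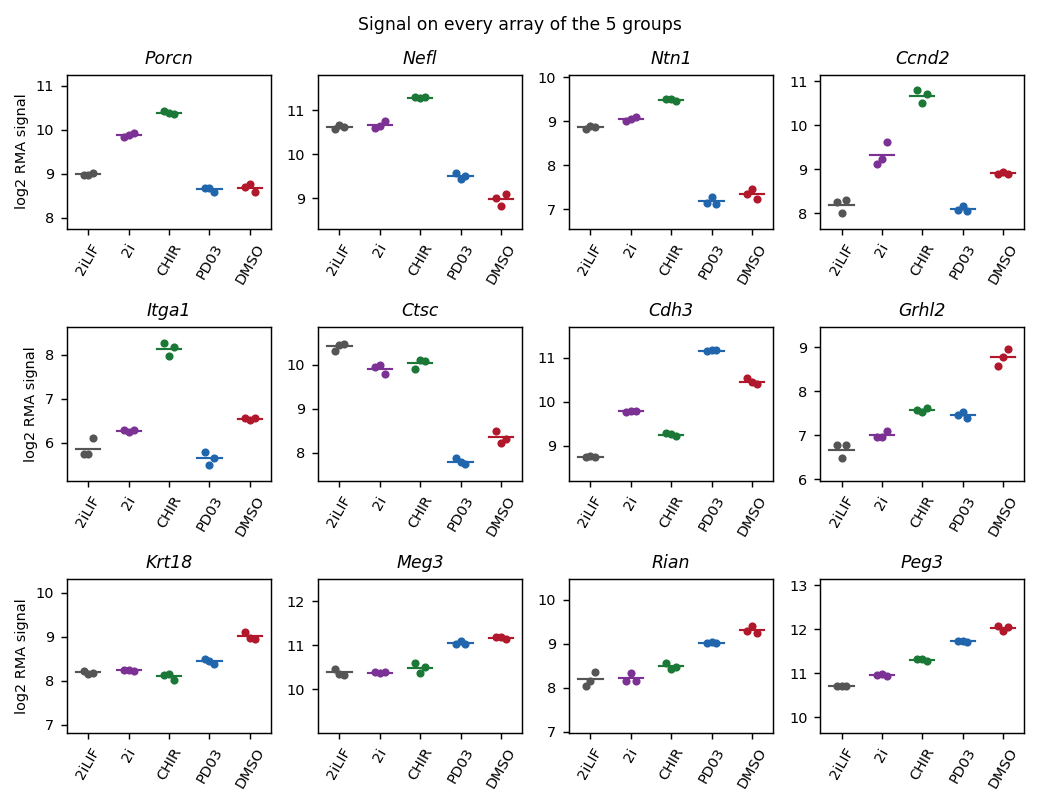
Log2 RMA signal on each of the 15 arrays for 12 genes (points) with the group mean (bar), in the 2iLIF, 2i, CHIR, PD03 and DMSO groups. All panels span the same range of 3.5 log2 units. In every panel the 3 CHIR points lie on 1 side of the 3 DMSO points.

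Epithelial genes were lower with CHIR99021. Of 28 measured junction, keratin and epithelial regulator genes, 17 were lower and 2 higher, with a median of -0.18. This is 67.9% called, against 20.8% of all genes. The number lower was 13 after centring. Cdh3, which encodes P-cadherin, read 9.28, 9.27 and 9.22 with CHIR99021 and 10.53, 10.45 and 10.40 without (2.31-fold lower, limma adjusted p = 4.32e-12). Grhl2, a transcription factor that maintains epithelia, read 7.56, 7.53 and 7.63 against 8.57, 8.79 and 8.95 (-1.20 ± 0.09). Krt18, a keratin of simple epithelia, read 8.13, 8.15 and 8.03 against 9.11, 8.97 and 8.96 (-0.91 ± 0.05). The 3 genes showed no overlap between the groups. Rab25, a small GTPase of epithelial vesicle transport, was at -1.13 ± 0.08, the claudins Cldn7 and Cldn4 at -0.89 ± 0.05 and -0.58 ± 0.04, the adhesion molecule Epcam at -0.49 ± 0.04 and the splicing factor Esrp1 at -0.50 ± 0.04. E-cadherin (Cdh1) was lower by less (-0.18 ± 0.03), and the desmosomal cadherin Dsg2 was higher (9.59, 9.69 and 9.55 against 8.74, 8.59 and 8.59, 0.97 ± 0.05). Of 14 mesenchymal genes 3 were higher (6 after centring) and 1 lower, 28.6% called. Vimentin (Vim) was higher, at 0.41 ± 0.03, and Snai2, which represses E-cadherin, was lower (-0.39 ± 0.09).

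Cytoskeletal target genes of serum response factor were lower as well. Of 21 actin and SRF genes 11 were lower and 1 higher (10 and 1 after centring), with a median of -0.15 and 57.1% called. Cnn2, a calponin that binds actin, read 8.57, 8.59 and 8.51 in CHIR and 9.49, 9.49 and 9.75 in DMSO (-1.02 ± 0.08). The tropomyosins Tpm1 and Tpm2 were at -0.44 ± 0.05 and -0.42 ± 0.06, and Srf itself was at -0.42 ± 0.04. Of 36 integrin and matrix genes 4 were higher (8 after centring) and 5 lower, a share called that is close to the 20.8% of all genes. Itga1, a collagen receptor subunit, read 8.26, 7.96 and 8.18 with CHIR99021 against 6.56, 6.51 and 6.55, 3.02-fold (limma adjusted p = 8.06e-09). Itga9 was higher by 0.67 ± 0.05, whereas Itga3, a laminin receptor subunit, was lower (-0.86 ± 0.04). In the Hippo list, Tead1 (0.56 ± 0.06) and Tead4 (0.55 ± 0.04), DNA-binding partners of YAP, were higher. Yap1 was lower (-0.21 ± 0.03), as was Amotl2 (-0.46 ± 0.05), an angiomotin that binds YAP.

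**Figure D3:**
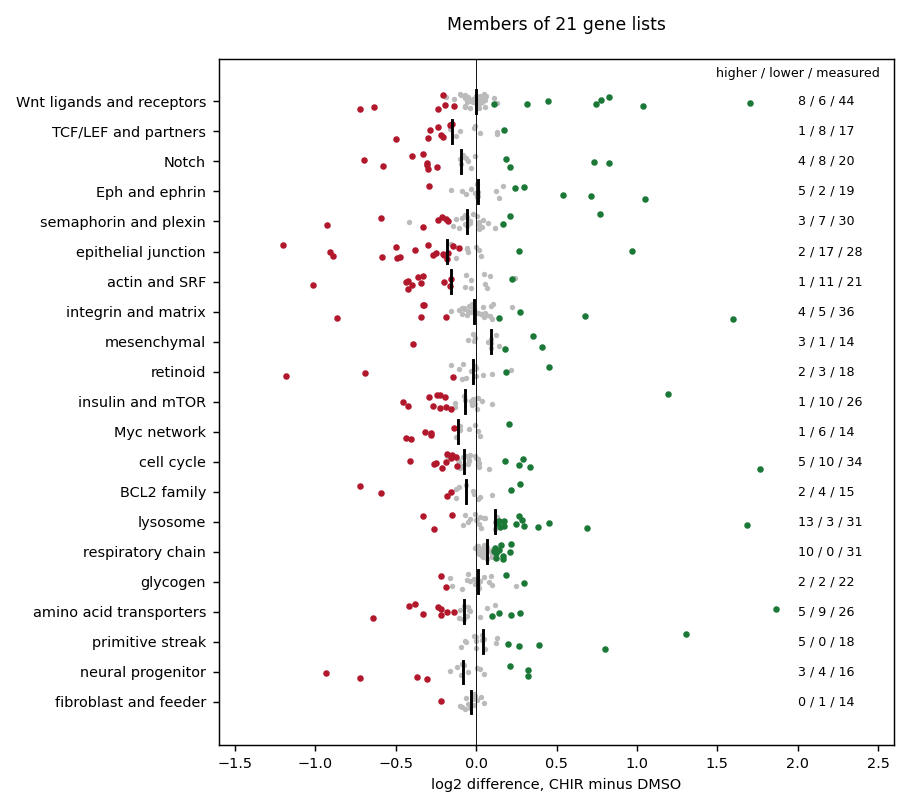
Log2 difference in CHIR minus DMSO for the measured members of 21 of the 53 gene lists. Efnb2, at -1.68 in the Eph and ephrin list, lies beyond the left edge and is not shown. Green points were called higher, red points called lower and grey points not called at an adjusted p of 0.05, black bars are medians, and the counts at the right are higher, lower and measured. Among the lists shown, the epithelial junction (2 higher, 17 lower of 28) and actin lists lie to the left. The lysosome and respiratory chain lists lie slightly to the right, with medians of 0.11 and 0.07. Lists not shown include naive pluripotency, formative epiblast and cholesterol synthesis genes, with medians of 0.78, -0.57 and -0.21.

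Cell cycle and cell death genes differed gene by gene. Of 34 cell cycle genes 5 were higher and 10 lower (5 lower after centring and 6 without CHIR replicate 2). The share called was 44.1%, against 20.8% of all genes. Ccnd2, which encodes cyclin D2, stood apart from all others of the list, at 10.79, 10.51 and 10.71 with CHIR99021 and 8.88, 8.94 and 8.88 without (1.77 ± 0.11, 3.4-fold, limma adjusted p = 7.99e-09). Its partner kinase gene Cdk6 was at 0.26 ± 0.04, and Rb1, whose product cyclin D kinases inactivate, was lower (-0.41 ± 0.07). The Myc network was lower in 6 of 14 genes and higher in 1 (50.0% called). Mycn was at -0.43 ± 0.06. Myc read 9.56, 9.12 and 9.42 against 9.49, 9.84 and 9.99, so its arrays overlapped, with a difference of -0.41 ± 0.13 (limma adjusted p = 0.0319). It was not called without CHIR replicate 2 or 3 or without DMSO replicate 2 or 3 (limma adjusted p from 0.0592 to 0.171). With any 1 of these 4 arrays left out, 4 genes of the network were lower. Of 15 BCL2 family genes 4 were lower and 2 higher, 40.0% called (2 lower without CHIR replicate 1). The 2 lowest encode cell death activators: Bmf (8.48, 8.50 and 8.58 against 9.22, 9.26 and 9.24, -0.72 ± 0.07) and Bcl2l11, which encodes BIM (-0.59 ± 0.06).

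Of 31 lysosome genes 13 were higher and 3 lower, with a median of 0.11 and 51.6% called, against 20.8% of all genes. Ctsc, the protease cathepsin C, read 9.91, 10.11 and 10.07 in CHIR and 8.49, 8.23 and 8.32 in DMSO (1.68 ± 0.07, limma adjusted p = 2.19e-10). Mitf, a transcription factor of the TFEB family that GSK3 can phosphorylate, was higher by 0.69 ± 0.05, with a second probe set at 0.10 that read near background, and its relative Tfe3 was lower (-0.26). The hexosaminidase Hexa was at 0.45 ± 0.06, Lamp2 at 0.39 ± 0.06 and cathepsin B (Ctsb) at 0.30 ± 0.04. Of 31 respiratory chain genes 10 were higher and 0 lower (32.3% called), none by more than 0.21 (Atp5o and Sdhd), and 12 were higher after centring. The count was 4 without CHIR replicate 2 or 3 and 5 without DMSO replicate 1 or 2. In glycogen metabolism, the textbook GSK3 pathway, 2 of 22 genes were higher and 2 lower, 18.2% called, near the share of all genes. Gys1, which encodes glycogen synthase, was at -0.09 ± 0.04 (limma adjusted p = 0.181). In glycolysis, with 40.0% called, 4 of 20 were higher, led by the regulator Pfkfb3 (0.54 ± 0.06), and 4 lower, led by the phosphofructokinase Pfkm (-0.45 ± 0.05).

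Transport and hormone pathways had single strong members. Slc15a1, a peptide transporter, read 8.84, 9.16 and 9.06 with CHIR99021 and 7.56, 6.85 and 7.07 without, 3.64-fold (1.86 ± 0.13, limma adjusted p = 3.44e-08). Slc1a3, a glutamate transporter, was lower (-0.64 ± 0.04). In its list 5 amino acid and peptide transporter genes of 26 were higher and 9 lower (53.8% called, against 20.8% of all genes). The higher count was 3 without any 1 of the arrays except DMSO replicate 2. Ephx2, an epoxide hydrolase of fatty acid metabolism, was at 1.63 ± 0.06 (3.09-fold), the fatty acid elongase Elovl7 at 0.86 ± 0.05 and the acyl-CoA synthetase Acsl4 at -0.64 ± 0.05. Of 26 insulin and mTOR genes 10 were lower and 1 was higher (42.3% called), Tcl1, a coactivator of AKT, at 1.19 ± 0.07. The lower ones included Pik3r3, a subunit of PI3 kinase, at -0.45 ± 0.06 and Foxo1 at -0.29 ± 0.04.

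Of 18 retinoid genes 2 were higher and 3 lower (27.8% called, against 20.8% of all genes). Crabp2, a retinoic acid carrier, read 7.43, 7.50 and 7.67 with CHIR99021 and 8.57, 8.64 and 8.93 without (-1.18 ± 0.10, limma adjusted p = 4.28e-07), and the receptor Rarg was at -0.69 ± 0.05. These were 2 of the 3 lower genes. In the Notch list 4 of 20 were higher and 8 lower, and 2 were higher without CHIR replicate 1 or 3 or DMSO replicate 2 or 3. The ligand Jag1 (0.83 ± 0.07) and the target Hes1 (0.73 ± 0.07) were higher. The ligand Dll1 (-0.58 ± 0.06), the mediator Rbpj (-0.33 ± 0.04) and Hes6 (-0.69 ± 0.05), which opposes Hes1, were lower. In LIF signalling, with 31.2% called, 1 of 16 genes was higher, the receptor subunit gene Il6st (gp130, 0.63 ± 0.05). In that list 4 were lower, with Pias3, an inhibitor of STAT3, the lowest (-0.57 ± 0.04).

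Markers of other cell types showed few large differences. Of 18 primitive streak genes 5 were higher and 0 lower: Nkx1-2, a homeobox gene of the caudal epiblast, read 8.56, 8.37 and 8.51 against 7.11, 7.21 and 7.21 (1.31 ± 0.06), Eomes was at 0.80 ± 0.10 and Cdx1 at 0.39. The streak median was 0.04, with 27.8% called against 20.8% of all genes, and 3 were higher without CHIR replicate 1 or DMSO replicate 3. Of 16 primitive endoderm genes 1 was higher and 1 lower (12.5% called, below the share of all genes). Of 16 trophoblast genes 5 were higher, with Tfap2a at 0.70 ± 0.04, and 3 lower, all keratins (50.0% called). Of 5 measured genes of the 2-cell stage 0 were called. Of 14 fibroblast and feeder genes 1 was called (7.14%), Dcn, at -0.22 and near background in both groups (5.72 and 5.94). Its call was lost after centring and without CHIR replicate 2 or 3 or DMSO replicate 3. In bulk RNA a smaller number of cells of a type and less RNA per cell cannot be told apart.

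The other genes at the ends of the ranking were diverse. Gmnc, which encodes the geminin-family factor GEMC1 of multiciliated cells, had the highest difference of the named genes. It read 9.19, 9.16 and 9.22 with CHIR99021 and 5.37, 5.59 and 5.36 without, where it was near background (3.75 ± 0.08, limma adjusted p = 8.83e-14). Nt5e, the ecto-nucleotidase CD73, read 9.78, 9.70 and 9.75 against 7.02, 6.82 and 6.74 (2.88 ± 0.08). Both groups of values lay far apart. Also higher were Rerg, a small GTPase of the RAS family (9.94, 9.95 and 10.06 against 8.04, 7.73 and 7.82, 4.35-fold), Dnah8, a dynein heavy chain (3.2-fold), and Arhgef26, a guanine nucleotide exchange factor (3.13-fold). Lower were Myrf, a membrane-bound transcription factor known from oligodendrocytes (8.58, 8.24 and 8.41 against 9.52, 9.80 and 9.93, 2.53-fold), and Foxi3, a forkhead factor of ectodermal placodes (9.70, 9.42 and 9.44 against 10.50, 10.81 and 10.98, 2.36-fold). Neither gene overlapped between the groups. Igfbp5, an IGF-binding protein (2.06-fold), was lower too. Wt1, the Wilms tumour zinc finger gene, read 7.06, 6.81 and 6.90 against 7.69, 8.19 and 8.15 (-1.09 ± 0.11).

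Many of the genes also differed with CHIR99021 when MEK was inhibited. The 2i and PD03 groups differ by CHIR99021 in the presence of PD0325901, and their arrays are separate from those of CHIR and DMSO. Each gene's spread was estimated over all arrays, so the calls of the comparisons are not fully independent. In 2i minus PD03 3891 genes (19.5%) were called, 2008 higher (10.1%) and 1883 lower (9.44%). Of the 1998 genes higher in CHIR minus DMSO, 1160 were also higher there, which is 58.1% of that list and 57.8% of the other. Of the 2146 lower genes 1243 were also lower, 57.9% of that list and 66% of the other. Genes called in opposite directions numbered 28 and 6. Of the genes that differed at least 2-fold, 66 of 68 higher and 18 of 24 lower were called the same way. The differences correlated at r = 0.777 (Pearson) and 0.602 (Spearman) across genes, which are not independent replicates. Ntn1 (2.14 and 1.87), Rerg (2.12 and 2.02), Axin2 (1.45 and 1.53), Meg3 (-0.67 and -0.67) and Cnn2 (-1.02 and -0.95) are given with their difference without and then with PD0325901. None of these 5 was called in the test of the difference between the comparisons.

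That test, the interaction (2i minus PD03) minus (CHIR minus DMSO), called 406 genes (2.04%), 186 above 0 (0.933%) and 220 below (1.10%), and 269 and 255 genes without PD03 replicate 1 and without PD03 replicate 3. The neurofilament genes were among those that responded less with PD0325901: Nefl was 2.31 without and 1.15 with it, an interaction of -1.16 ± 0.09 (limma adjusted p = 2.27e-06), and Nefm was 2.02 and 0.73. Btla, an inhibitory lymphocyte receptor gene, was at 2.44 and 0.90. Sfrp1 was 0.82 without and -0.15 with PD0325901, Nrp2 0.77 and 0.11, and Mitf 0.69 and 0.07. The PD03 and 2i means behind the differences with PD0325901 were 11.89 and 11.74 for Sfrp1, 8.25 and 8.36 for Nrp2, and 9.32 and 9.39 for Mitf.

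Several lower genes also had a smaller difference with PD0325901. Krt18 was -0.91 without and -0.21 with PD0325901, Itga3 -0.86 and -0.26, Rab25 -1.13 and -0.31, Grhl2 -1.20 and -0.46 and Wt1 -1.09 and 0.08, all with called interactions. The PD03 means of Krt18, Itga3 and Grhl2 (8.44, 8.53 and 7.46) lay below their DMSO means (9.01, 9.13 and 8.77). A few genes responded more when MEK was inhibited. Phf19, a Polycomb subunit gene, was -0.74 without and -1.19 with PD0325901, Pax6 -0.72 and -1.12, and Lef1 -0.50 and -0.92. Epha7 was 0.54 and 1.04, and its interaction was not called without 2i replicate 2 or without CHIR replicate 3.

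**Figure D4:**
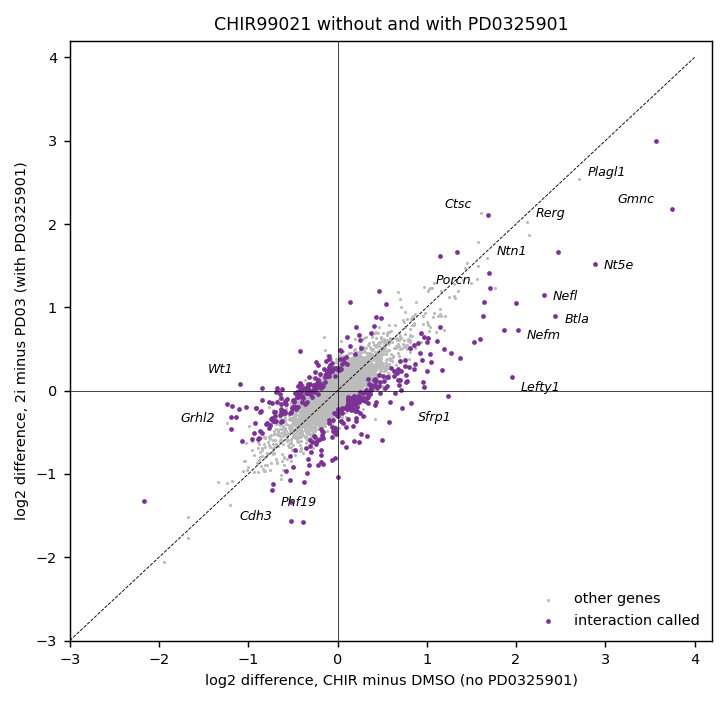
Log2 difference with CHIR99021 in the absence (CHIR minus DMSO, x axis) and presence (2i minus PD03, y axis) of PD0325901 for 19937 genes. Purple points are the 406 genes with a called interaction and the dashed line marks equal differences. Ntn1, Rerg and Plagl1 lie close to the line, and Gmnc, Nt5e, Btla and Nefm lie below it.

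Against cells that never lost the factors, the CHIR group had its own profile. In CHIR minus 2iLIF 4599 genes (23.1%) were called, and in DMSO minus 2iLIF 6916 (34.7%). Both share arrays with CHIR minus DMSO, so the values of the named genes are given side by side. Some genes had the 2iLIF level in CHIR and another in DMSO: Ephx2 was at 9.24 in 2iLIF, 9.35 in CHIR and 7.72 in DMSO, Ror2 at 9.27, 9.21 and 8.47, Cnn2 at 8.56, 8.56 and 9.57, and Itga3 at 8.24, 8.27 and 9.13. CHIR minus 2iLIF was not called for these 4. Others stood higher in CHIR than in either of the other groups. Ccnd2 was at 8.18 in 2iLIF, 10.67 in CHIR and 8.90 in DMSO, Itga1 at 5.86, 8.14 and 6.54, Porcn at 8.99, 10.39 and 8.69, and Wnt8a at 6.63, 7.55 and 6.77.

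Other genes had intermediate levels in CHIR. Foxi3 was at 7.73 in 2iLIF, 9.52 in CHIR and 10.76 in DMSO, Peg3 at 10.71, 11.31 and 12.03, and Fzd7 at 9.22, 10.16 and 10.79. Slc15a1 was at 10.15, 9.02 and 7.16 and Mitf at 10.10, 8.72 and 8.03. Each of these 5 differed from 2iLIF in CHIR and in DMSO. Wfdc2, a secreted protein of the WAP domain family, was at 10.95 in 2iLIF, 9.39 in CHIR and 9.72 in DMSO, and Serping1, the inhibitor of complement C1, at 7.95, 6.47 and 7.24. These 2 were lower in CHIR than in both other groups.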

How the data were processed

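Total RNA of 15 samples of mouse ES cells was measured on 1-colour whole-transcript arrays. The authors deposited log2 values per probe set, summarised with RMA per the submitters' processing notes (version not given in the sources used here). RMA corrects background and quantile-normalises, so it makes the overall distributions of the arrays alike. Array medians lay between 6.98 and 7.06. Of 34760 probe sets 21640 had 1 gene symbol in the platform annotation, 1321 had several and 11799 had none. Only those with 1 symbol were used, and each of 19937 genes was read by its probe set with the highest mean, 954 genes having more than 1. Depth does not apply to arrays, and their number, 3 per group, limits the precision.

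Group means were fitted with limma 3.58.1 in R 4.3.3 over all 15 arrays, with two-sided moderated tests and Benjamini-Hochberg adjustment over all genes. On data simulated with independent normal errors and 50 genes changed at each size, the CHIR minus DMSO test recovered 70% at a log2 size of 0.25 and 100% at 0.5. All other genes were left unchanged there, whereas 4144 genes were called in the real comparison, whose errors need not be independent. The recovery in the real data can therefore differ. Values under about 6 were treated as near background. The replicate numbers of the titles were checked for pairing: deviations of same-numbered CHIR and DMSO arrays correlated at -0.14, -0.36 and 0.01, so the numbers were not used as a block.

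Named genes were the 20 highest and 20 lowest called genes without overlap of the arrays, leaving out predicted genes, up to 5 called members of each list, the 6 highest and 6 lowest of the interaction and of CHIR minus 2iLIF, and a few pathway genes whatever their result. From these the text gives a selection, and genes outside the rule (the microRNA genes and some further list members) were chosen after their values were seen. The comparison, the lists and the rule were chosen with earlier results of these data known. Alternatives were the replicate block, only the compared groups in the fit, a filter (6 or more on 3 arrays), the mean over probe sets, arrays centred on their medians, trend and robust settings, and leaving out each array.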

Additional observations from a re-analysis of the deposited data

Results flagged for a closer look

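For 42 genes named in the text the difference with CHIR99021 itself differed by the presence of PD0325901, as the interaction (2i minus PD03) minus (CHIR minus DMSO) was called by limma at an adjusted p under 0.05. The values are that interaction on the log2 scale, with 3 arrays in each of the 4 groups.

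Among genes higher in CHIR than in DMSO, the difference was smaller with PD0325901 for Gmnc (-1.56), Btla (-1.54), Nt5e (-1.36), Nefm (-1.29), Nefl (-1.16) and Slc15a1 (-1.14). The same held for Itga1 (-0.98), Sfrp1 (-0.98), Ephx2 (-0.73), Epha1 (-0.71), Tcl1 (-0.69), Nrp2 (-0.66), Wnt8a (-0.66), Mitf (-0.63), Arhgef26 (-0.58) and Itga9 (-0.54). It held by less for Epha4 (-0.47), Porcn (-0.47), Tfap2a (-0.34), Dsg2 (-0.32), Elovl7 (-0.31), Tnfrsf19 (-0.29) and Vim (-0.28). The higher genes Epha7 (0.51), Ctsc (0.43) and Cdk6 (0.25) had positive interactions, so their difference was larger with PD0325901.

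Among genes lower in CHIR than in DMSO, the interaction was positive for Wt1 (1.17), Rab25 (0.82), Grhl2 (0.73), Krt18 (0.70), Itga3 (0.61), Sema4c (0.54), Pfkm (0.44), Wfdc2 (0.41), Slc1a3 (0.38), Fzd2 (0.35), Cldn4 (0.33), Cldn7 (0.32) and Hes6 (0.32). It was negative for the lower genes Phf19 (-0.45), Lef1 (-0.42) and Pax6 (-0.40).

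The interaction was called under every setting tried for 33 of the 42 genes. It was not called under 1 or more settings, single left-out arrays included, for Ctsc, Cdk6, Cldn7, Dsg2, Elovl7, Epha7, Fzd2, Hes6 and Tnfrsf19.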

How the results depend on the processing

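The counts of called genes in CHIR minus DMSO (4144), 2i minus PD03 (3891), CHIR minus 2iLIF (4599) and DMSO minus 2iLIF (6916) stayed within 1.5 times their value under every alternative tried. The count for CHIR minus DMSO ranged from 3210 to 3985 with 1 of its arrays left out, was 3211 with only the compared groups in the fit and 4427 with trend and robust settings. The interaction count (406) ranged from 255 to 437 with 1 array left out, and was 255 without PD03 replicate 3 and 269 without PD03 replicate 1. Centring the arrays changed the split of CHIR minus DMSO from 48.2% to 62.9% higher, and the difference of Gsk3a, not called, from -0.04 to 0.001. The replicate block gave 4007 called genes in CHIR minus DMSO, 3756 in 2i minus PD03 and 352 in the interaction. Deviations of same-numbered CHIR and DMSO arrays correlated at -0.14, -0.36 and 0.01. Differently numbered arrays were not compared and the other groups were not checked, so pairing was not fully tested. Of 119 named genes called in CHIR minus DMSO, 116 were called under every alternative in which they were tested, and Myc, Dcn and Mir20a were not under 1 or more. With 3 arrays per group, small differences and signal near background were measured least well.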
